A study of Mus musculus with 4 samples.

Results

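The genes described here are 9 that Müller glia, the radial glial cells of the retina, are known to use to keep the retinal environment steady. They were chosen by symbol (Glul, Slc1a3, Slc1a2, Aqp4, Kcnj10, Clu, Car2, Abca8a and Crym), with earlier results of these data known. Each symbol matched 1 of the 32285 genes in the matrices. The data are Visium spatial transcriptomics, in which cryosections of mouse posterior eye lie on a grid of barcoded spots and each spot counts unique molecular identifiers (UMIs, 1 per captured transcript) from the mixture of cells above it. The eyes came from C57BL/6J mice and were frozen fresh. Each of the 4 capture frames gave 1 library, and the treatment label of every frame reads naive plus AAV2/2. The study's design describes AAV2/2 vectors that drive the secreted Wnt inhibitor Wif1 from the CMV promoter, which is not restricted to a cell type, a control vector with GFP, and sections from control eyes and from eyes at 2 and 4 weeks after injection. The labels do not say which of these conditions lay on which frame or how many eyes a frame held, so frames were not compared as treatments. The frames are labelled as biological replicates, and nothing says that they came from different animals.

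Müller glia span the whole thickness of the neural retina. Their cell bodies lie in the inner nuclear layer, their endfeet line the vitreous side beside the ganglion cells, and their outer processes reach between the photoreceptors. They take up synaptic glutamate and turn it into glutamine, carry potassium and water away from active neurons toward blood vessels and the vitreous, hydrate carbon dioxide and supply lipids. Several of these genes are also known from other cells of the back of the eye, among them astrocytes of the nerve fibre layer and optic nerve, oligodendrocytes and the pigment epithelium. A spot holds several cells, so fewer cells of a type and less RNA per cell cannot be told apart in any value below.

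The 4 frames held 1201, 1243, 1056 and 1103 spots over tissue and 674029 to 1066633 UMIs, with a median of 430 to 630.5 UMIs per spot. Of 2458 distinct barcodes, 1271 occurred in at least 2 frames, because Visium barcodes mark slide positions rather than cells. Spots were grouped into regions by clustering 149 marker genes of layers, pigment cells, myelin and outer tissues, none of which is a gene described here or a Müller glia marker. The 2649 spots with at least 20 UMIs of those markers were clustered. The other 1954 spots belong to no region and held 18.9% of all UMIs. They held 33.0% of the UMIs of Abca8a, 30% of Aqp4, 26.3% of Glul, 26.3% of Slc1a3 and 21.8% of Clu. For Crym, Kcnj10, Car2 and Slc1a2 the shares were 17.9%, 17.6%, 15.9% and 14.2%. Region values below leave these spots out. In frames 1 to 4 the photoreceptor region held 262, 253, 248 and 276 spots, the inner nuclear region 86, 74, 52 and 26, the ganglion region 101, 146, 110 and 119, and the pigmented region 77, 143, 147 and 36. Levels are given as CPM, a gene's UMIs per 1000000 UMIs of that frame, or of that region in that frame. The myelin region, led by oligodendrocyte genes such as those of the optic nerve, held 13, 28 and 40 spots in frames 2 to 4 and none in frame 1. It carried only 41043 UMIs in all, 3970 of them in frame 2. Regions led by muscle (104 spots), epithelium (69 spots) and blood (69 spots) genes did not enter the fit. A fibrous region led by the matrix genes Ogn, Fmod and Dcn entered the fit but no comparison. The photoreceptor genes Opn1sw and Arr3 were also among its leading markers. Its summed photoreceptor markers were at 66180 to 107779 CPM, against 83487 to 94100 CPM in the photoreceptor region. The UMIs of a region were summed within each frame, n counts frames, and such a pool needed at least 10 spots.

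Non-member Müller markers were used to ask whether the regions carry Müller RNA where it is known to lie. This list too was chosen with earlier results of these data known. Of 16 such markers, 15 passed the low-count filter. In the inner nuclear region relative to the photoreceptor region, 10 of these 15 rose, none fell, and their median log2 fold was 1.55, beside a median of 0.01 over all 3539 genes tested, of which 13.9% rose and 11.7% fell. Dkk3, a secreted Wnt modulator, rose by 2.14 ± 0.36 on the log2 scale (SE, adjusted p = 1.91e-06), Apoe, the main lipid carrier of glia, by 1.43 ± 0.27 (adjusted p = 3.47e-05), and Rlbp1, the retinaldehyde-binding protein of Müller cells and pigment epithelium, by 1.00 ± 0.38 (adjusted p = 0.040). In the ganglion region relative to the inner nuclear region 8 of 15 fell and none rose, with 6.98% of all genes falling and 6.05% rising. The same list was not restricted to the neural retina. Of its 15 tested genes 8 rose in the myelin region (5.62% of all genes, a share that moved with the scaling), led by Vim, Mt2 and Apoe, while Rlbp1, Sox2 and Hes1 had 0 UMIs there, and 11 rose and 1 fell in the pigmented region (12.7% and 11.9% of all genes). The levels below can therefore come from Müller glia and from any other cell in a spot that uses the same genes.

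Across all spots of a frame, the gene levels differed between frames by factors (highest over lowest) of 1.49 for Slc1a2 to 13.8 for Crym. Glul, glutamine synthetase, which joins glutamate and ammonia to glutamine, was at 1093, 888, 662 and 734 CPM in frames 1 to 4 (979, 947, 586 and 495 UMIs). Slc1a3, the glutamate transporter GLAST of Müller glia, was at 120.55, 87.2, 59.9 and 63.8 CPM in frames 1 to 4. Slc1a2, the glutamate transporter GLT-1, was at 75.9, 86.3, 92.6 and 113 CPM. Frame 1 was highest for Glul and Slc1a3 and lowest for Slc1a2. Aqp4, the water channel of glial endfeet, was at 52.5, 46.9, 44.0 and 20.8 CPM, with 150 UMIs in all. Kcnj10, the potassium channel Kir4.1, was at 6.70, 15, 9.03 and 5.93 CPM from only 34 UMIs. Their 95% exact Poisson intervals, which here and below cover counting error only, run from 11.4 to 34.8 CPM for Aqp4 in frame 4 and from 1.62 to 15.2 CPM for Kcnj10 in frame 4.

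The other 4 genes have varied roles. Clu, the secreted chaperone and lipid carrier clusterin, was at 7903, 7808, 8382 and 2748 CPM in frames 1 to 4, with 24682 UMIs in all. Its frame 4 value lay far below the other frames, and the 95% counting interval there was 2624 to 2876 CPM. Car2, the cytosolic carbonic anhydrase II, was at 141, 140, 85.8 and 114 CPM. Abca8a, a lipid transporter of the ABC family, was at 38.0, 23.4, 21.5 and 14.8 CPM from 88 UMIs. Crym, mu-crystallin, which binds thyroid hormone in the cytosol, was at 61.4, 26.3, 29.4 and 4.45 CPM from 112 UMIs, of which 3 lay in frame 4. For Aqp4, Kcnj10, Clu, Abca8a and Crym frame 4 was the lowest frame, and frame 4 also had the lowest UMI total. It held the fewest inner nuclear and pigmented spots as well, 26 and 36. The part of this mix of regions in the levels over all spots was not tested. In mean and SD over the 4 frames, Glul was at 844 ± 191 CPM, Slc1a3 at 82.8 ± 27.9 CPM, Slc1a2 at 91.9 ± 15.5 CPM and Aqp4 at 41.0 ± 14.0 CPM.

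**Figure D1:**
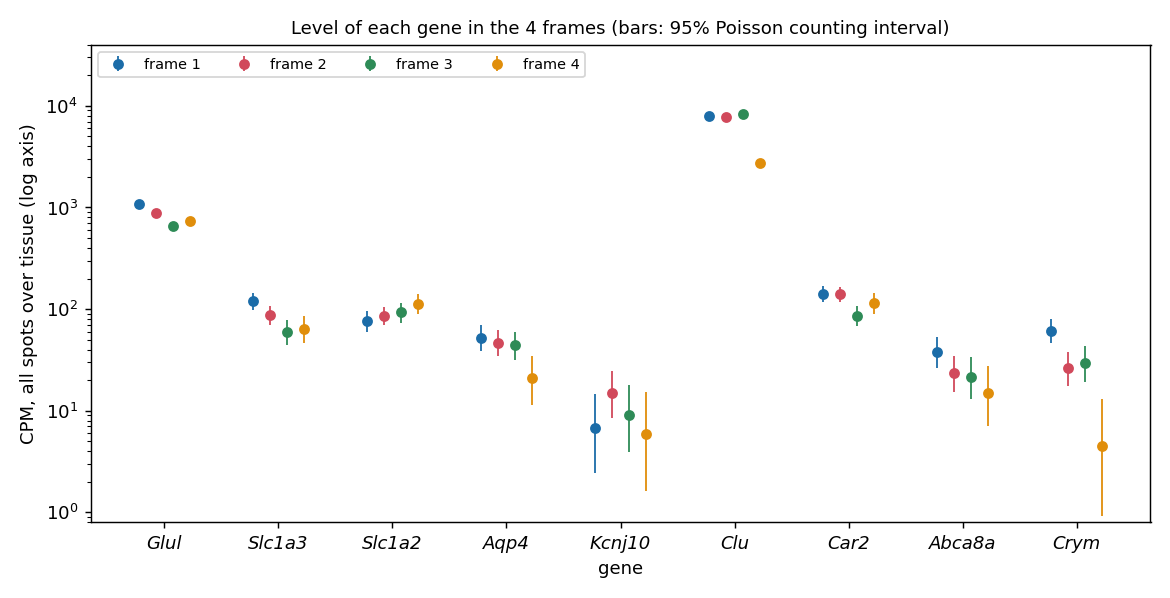
Level of each of the 9 genes in the 4 frames, in CPM over all spots over tissue on a log axis, with 95% Poisson counting intervals as bars. Clu in frame 4 sits at 2748 CPM below the other frames at 7808 to 8382 CPM, and Crym in frame 4 sits at 4.45 CPM from 3 UMIs.

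Glul and Slc1a3, the enzyme and the transporter of the classical Müller glutamate cycle, both rose in the inner nuclear relative to the photoreceptor region and both fell in the ganglion relative to the inner nuclear region, as given below. Aqp4 and Clu did so too. Of the 9 genes, 5 matched a RefSeq promoter entry (Glul, Slc1a3, Slc1a2, Kcnj10 and Abca8a), and the windows of the 2 among these that were called in both comparisons with that pattern are shown. RefSeq (GRCm38.p6) places Glul on chromosome 1 from 153899929 to 153909723 and Slc1a3 on chromosome 15 from 8634124 to 8710807. The windows below hold 250 bases before and 50 after each gene's start and are written 5′ to 3′ on the gene's own strand, chr1:153899679-153899978 on the plus strand and chr15:8710758-8711057 on the minus strand. Capitals mark the CCAAT box and the ACAAT core known from SOX factors, each searched on both strands (as CCAAT or ATTGG, and as ACAAT or ATTGT).
Glul: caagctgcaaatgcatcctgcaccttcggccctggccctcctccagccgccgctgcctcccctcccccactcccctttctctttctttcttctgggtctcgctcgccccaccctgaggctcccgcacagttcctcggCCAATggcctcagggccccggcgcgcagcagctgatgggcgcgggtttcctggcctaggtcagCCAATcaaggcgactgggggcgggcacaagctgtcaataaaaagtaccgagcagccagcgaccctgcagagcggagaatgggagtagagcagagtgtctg
Slc1a3: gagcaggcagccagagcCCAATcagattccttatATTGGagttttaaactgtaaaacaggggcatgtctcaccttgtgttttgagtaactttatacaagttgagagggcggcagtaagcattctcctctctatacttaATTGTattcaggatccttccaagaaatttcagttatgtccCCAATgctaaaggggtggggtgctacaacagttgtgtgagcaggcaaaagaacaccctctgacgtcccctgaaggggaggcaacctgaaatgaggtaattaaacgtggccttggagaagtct
The Glul window held 2 CCAAT matches and no ACAAT match, and the Slc1a3 window held 3 CCAAT matches and 1 ACAAT match. Among the 32851 RefSeq promoter windows of this length that were examined, 37.4% held a CCAAT match and 31.0% an ACAAT match, so these letters are common, and a match is a description of the sequence and not a binding site.

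Comparing the inner nuclear with the photoreceptor region asks where along the retinal depth these transcripts lie. Of the 6 genes that passed the low-count filter, 4 rose in the inner nuclear region: Glul, Slc1a3, Aqp4 and Clu, each higher in 4 of 4 frames, while Slc1a2 and Car2 did not pass the test. Of all 3539 genes tested, 25.7% were called in this comparison, 13.9% higher and 11.7% lower. Adjusted p-values come from edgeR's quasi-likelihood test with Benjamini-Hochberg adjustment over all 3539 genes, and log2 folds are relative to libraries without the marker genes, so they can differ from the ratio of the CPM values. Kcnj10, Abca8a and Crym had too few UMIs for the test and are described by counts further on. The filter asked for enough UMIs in several pools of any region. Slc1a3 and Aqp4 were highest in inner nuclear and myelin pools and may have passed the filter through these. The counts of genes rising in those regions are therefore not tests of their own.

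Glul was at 2054, 2172, 1126 and 2220 CPM in the inner nuclear region of frames 1 to 4, against 474, 384, 317 and 377 CPM in the photoreceptor region. Frame 3 was the low one in the inner nuclear region, yet still above every photoreceptor value. The log2 fold was 2.00 ± 0.23 (SE, adjusted p = 5.08e-11), and the frames' own log2 folds ran from 1.60 to 2.20. Slc1a3 was at 311, 175, 125 and 278 CPM in the inner nuclear region, against 89.1, 25.3, 54.3 and 24.4 CPM in the photoreceptor region. These values did not overlap either, and the log2 fold was 1.87 ± 0.43 (adjusted p = 0.000463). The share of all genes without overlap was not counted, so a lack of overlap, here and below, only describes the values.

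The paralogue of Slc1a3, Slc1a2, was not called. In rodent retina GLT-1 is best known from the terminals of cones and bipolar cells rather than from Müller glia. Slc1a2 was at 37.9, 96.3, 125 and 278 CPM in the inner nuclear region (5, 11, 8 and 8 UMIs), against 122, 169, 138 and 210 CPM in the photoreceptor region (26, 40, 33 and 43 UMIs). The groups overlapped, and the log2 fold of -0.80 ± 0.42 did not pass the test (adjusted p = 0.156). Of the 318 Slc1a2 UMIs, 142 (44.7%) lay in the photoreceptor region, which held 25.4% of all UMIs. Glul had 11.5% and Slc1a3 14.5% of their UMIs there.

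Aqp4 was at 53.1, 123, 141 and 104 CPM in the inner nuclear region, against 28.1, 4.22, 16.7 and 9.78 CPM in the photoreceptor region, which rest on 33 UMIs in the inner nuclear and 13 UMIs in the photoreceptor region. The groups did not overlap, and the log2 fold was 2.43 ± 0.66 (adjusted p = 0.00326). Without frame 2 the log2 fold was 1.99 and no longer passed the test (adjusted p = 0.0955), nor did it at 1.74 with at least 40 marker UMIs per spot (adjusted p = 0.133). Clu was at 9664, 8704, 8692 and 8082 CPM in the inner nuclear region, against 3474, 3001, 4980 and 1335 CPM in the photoreceptor region. Here frame 4 stood close to the other frames in the inner nuclear region and well below them in the photoreceptor region. The log2 fold was 1.35 ± 0.23 (adjusted p = 5.50e-06). Car2 was at 265, 193, 62.5 and 208 CPM in the inner nuclear region, against 225, 173, 79.3 and 161 CPM in the photoreceptor region, and its log2 fold was -0.05 ± 0.39 (adjusted p = 0.943), whose sign turned under several other settings. Frame 3 was the low frame for Car2 on both sides.

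Other genes of these pathways did not follow as a group. Of 9 tested genes of glutamate handling 2 rose, namely Glud1, glutamate dehydrogenase, by 1.81 ± 0.56 (adjusted p = 0.00994) and Slc38a1, a neutral amino acid transporter that carries glutamine, by 1.06 ± 0.33 (adjusted p = 0.0105). The glutamine transporter Slc38a3 was not called, with a log2 fold of -0.80 ± 0.39 (adjusted p = 0.124). Of 7 tested genes of water and potassium handling 2 rose and 3 fell. Fxyd1, a regulator of the sodium pump, rose by 1.99 ± 0.45 (adjusted p = 0.000439) and Sntb1, a syntrophin of the dystrophin complex, by 2.25 ± 0.65 (adjusted p = 0.00574). The pump subunit Atp1b2 fell by 0.91 on the log2 scale (adjusted p = 0.00109) and Dmd, dystrophin, which anchors AQP4 and Kir4.1 at glial membranes and also serves photoreceptor terminals, fell by 1.54 on the log2 scale (adjusted p = 0.00131). Of 5 tested carbonic, bicarbonate and lactate genes 1 fell, the lactate transporter Slc16a1 (log2 fold -1.49, adjusted p = 0.00112), and of 6 tested lipid and thyroid genes 1 fell, the sterol transporter Abcg1 (log2 fold -1.38, adjusted p = 0.00194).

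Markers of other cells moved too. The summed vascular list was at 173 to 500.3 CPM in the inner nuclear region, against 105 to 167 CPM in the photoreceptor region, and 1 of its 2 tested genes rose, the pericyte gene Rgs5 by 2.54 ± 0.55 (adjusted p = 0.000208). The summed astrocyte list was at 485 to 674 CPM in the inner nuclear region, against 279 to 417 CPM in the photoreceptor region, and Gfap was the 1 of 4 tested genes that rose, while Pax2 and Gjb6 had 0 UMIs on both sides. Of 8 tested gliosis genes 3 rose (Cp, Vim and Gfap), and of 4 tested microglia genes none was called. The part of these cells in the folds of Glul, Slc1a3, Aqp4 and Clu was not tested.

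**Figure D2:**
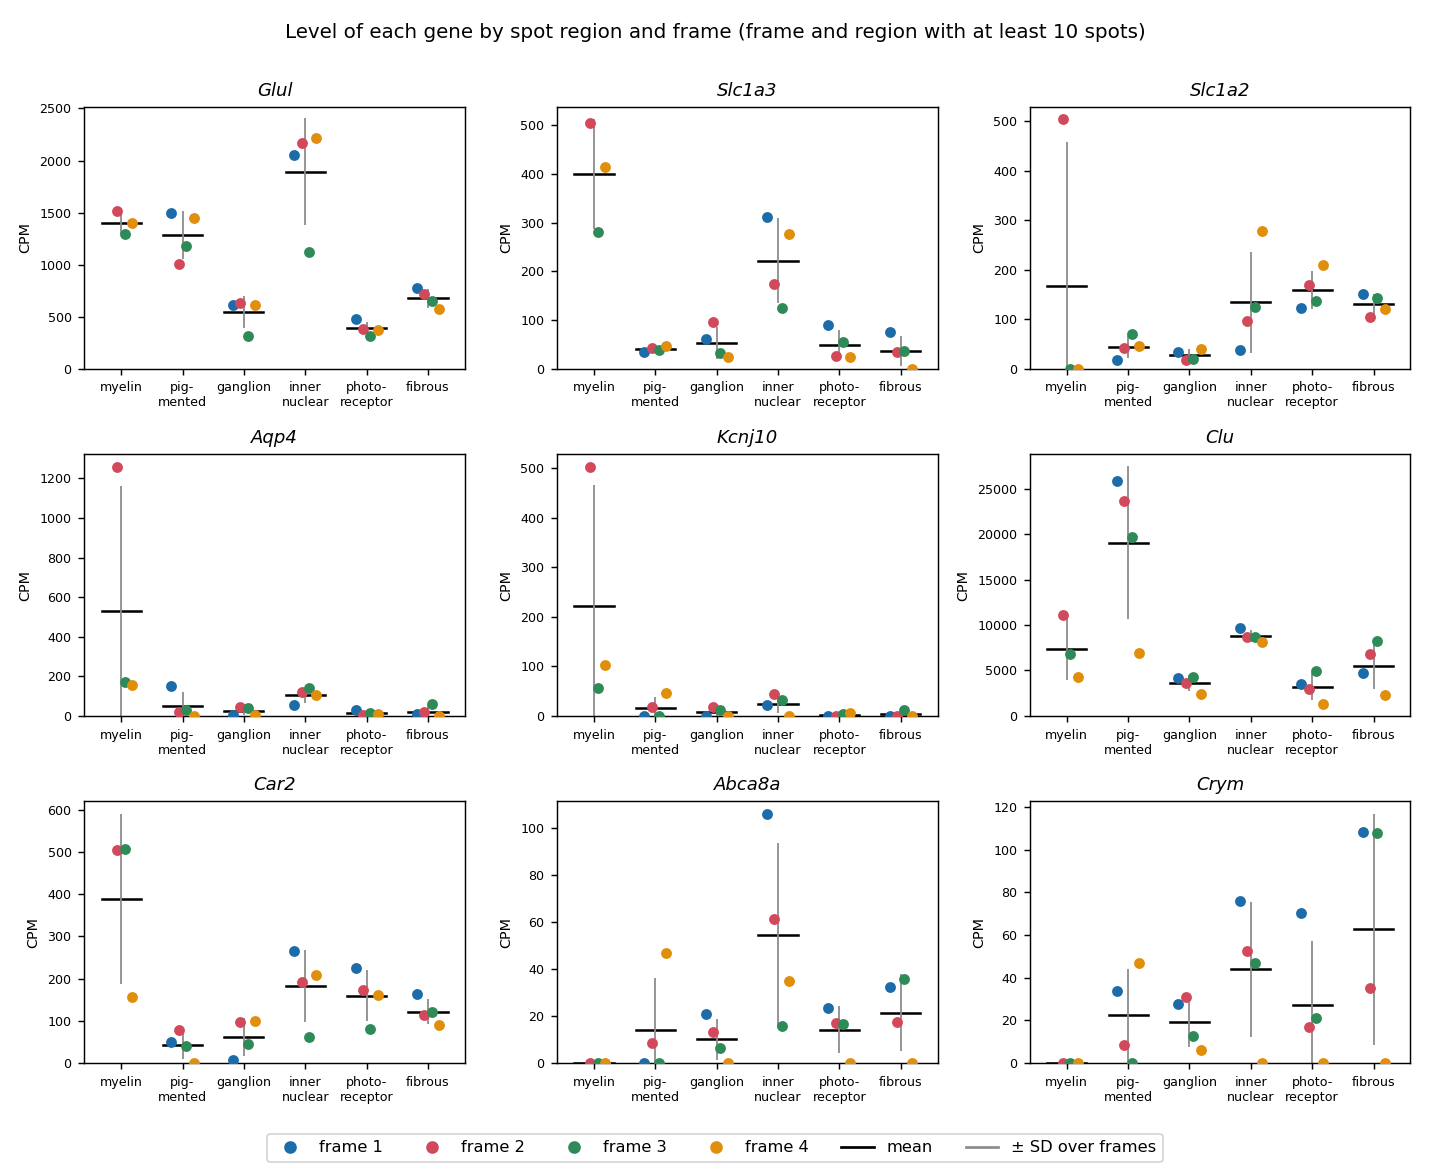
Level of each gene by spot region in CPM, with 1 point per frame, the mean as a black line and ± SD over frames in grey (bars are cut off at 0). Glul in the inner nuclear region averaged 1893 ± 516 CPM, against 388 ± 64.5 CPM in the photoreceptor region, while Clu was highest in the pigmented region at 19067 ± 8451 CPM, and the myelin points rest on few UMIs.

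The comparison of the ganglion with the inner nuclear region sets the layer of the endfeet against that of the cell bodies. All 6 tested genes fell in the ganglion region, each lower in 4 of 4 frames, where 13% of all genes were called, 6.05% higher and 6.98% lower. The inner nuclear pools are shared with the comparison before, and the filter may have favoured genes high there. The 6 falls are therefore not a test of their own. Glul was at 613, 632, 319 and 615 CPM in the ganglion region of frames 1 to 4, beside the inner nuclear values above, and fell by 1.70 on the log2 scale (SE 0.23, adjusted p = 2.46e-08). The frames' own log2 folds for Glul lay between -1.75 and -1.65. Frame 3 was low in both regions, so its fold was like that of the other frames. Slc1a3 was at 62.0, 96.5, 31.9 and 23.4 CPM in the ganglion region and fell by 1.80 on the log2 scale (SE 0.43, adjusted p = 0.00146). Clu was at 4132, 3614, 4280 and 2359 CPM there and fell by 1.27 on the log2 scale (SE 0.23, adjusted p = 3.82e-05), and without frame as a block it fell by 1.21 and did not pass the test (adjusted p = 0.0562), nor did it with regions by marker sums (log2 fold -0.81, adjusted p = 0.200). For Glul, Slc1a3 and Clu no ganglion value reached any inner nuclear value, and the share of all genes for which this held was not counted.

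The other 3 calls rest on fewer UMIs. Slc1a2 was at 34.4, 17.5, 19.1 and 41.0 CPM in the ganglion region from 19 UMIs and fell by 1.88 on the log2 scale (SE 0.52, adjusted p = 0.00717). In frame 1 it was nearly level between the regions, with a log2 fold of -0.05. Aqp4 was at 6.89, 43.9, 38.3 and 5.85 CPM in the ganglion region from 18 UMIs and fell by 1.87 on the log2 scale (SE 0.63, adjusted p = 0.0335). Car2 was at 6.89, 96.5, 44.7 and 99.5 CPM there and fell by 1.38 on the log2 scale (SE 0.44, adjusted p = 0.0211). The frames' own Car2 folds spread from -3.41 to -0.35. The Aqp4 call was lost on leaving out any 1 frame, with log2 folds of -2.27 to -1.62 and adjusted p-values of 0.0549 to 0.118. The Slc1a2 call was lost without frame 2 (adjusted p = 0.0699) or frame 3 (adjusted p = 0.0631), and the Car2 call without frame 1 (log2 fold -0.78, adjusted p = 0.380) or frame 2 (adjusted p = 0.0661). Other settings also ended these calls, 2 of them for Aqp4, 4 for Slc1a2 and 2 for Car2.

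Genes of the same pathways fell in part. Of 7 tested water and potassium genes 4 fell in the ganglion region and none rose, among them Atp1b2 (log2 fold -1.73, adjusted p = 3.18e-08), Fxyd1 (log2 fold -1.83, adjusted p = 0.00218) and Sntb1 (log2 fold -2.76, adjusted p = 0.00299). Among 9 tested glutamate genes Slc38a3 fell by 2.46 on the log2 scale (adjusted p = 0.000258), while the neutral amino acid transporter Slc1a4 rose by 1.49 ± 0.38 (adjusted p = 0.00311). Car14, a membrane carbonic anhydrase, fell by 2.01 on the log2 scale (adjusted p = 0.0354) as the 1 call among 5 carbonic, bicarbonate and lactate genes. None of 6 lipid and thyroid genes was called. Of 4 tested astrocyte genes 2 rose, Gfap by 1.01 ± 0.35 (adjusted p = 0.0368) and S100b by 2.21 ± 0.76 (adjusted p = 0.0451), while Gja1 (log2 fold -1.39, adjusted p = 0.0718) and Aldoc (log2 fold 0.50, adjusted p = 0.376) were not called. The summed astrocyte list was at 530.3 to 847 CPM in the ganglion region, against 485 to 674 CPM in the inner nuclear region, with Gjb6 at 0 UMIs in both, and its part in these folds was not tested. Of 8 tested gliosis genes 2 rose (Lcn2 and Gfap) and 1 fell (Cp), and no microglia or vascular gene was called among 4 and 2 tested.

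In the myelin region Slc1a3 and Aqp4 rose relative to the neural retina (the mean of the photoreceptor, inner nuclear and ganglion regions), each higher in 3 of 3 frames, and the other 4 tested genes were not called. Of all genes tested 22.9% were called in this comparison, 5.62% higher and 17.3% lower, and the median log2 fold of all genes was -1.16 with TMM scaling and -0.79 with RLE size factors. Of the called genes 24.5% were higher with TMM scaling, 46.3% with RLE size factors and 61.1% in DESeq2. Slc1a3 was at 504, 281 and 415 CPM in the myelin region of frames 2 to 4 (2, 5 and 8 UMIs). The photoreceptor and ganglion regions of those frames held at most 96.5 CPM, and the inner nuclear region 125 to 278 CPM. The log2 fold was 2.01 ± 0.56 (adjusted p = 0.00511), and it was 1.58 without frame 4 (adjusted p = 0.13) and 1.45 without the low-count filter (adjusted p = 0.101). With regions by marker sums the mean Slc1a3 level in the myelin region was 39.7 CPM and the gene was not tested. Aqp4 was at 1259, 169 and 156 CPM in the myelin region from 5, 3 and 3 UMIs, above every value of the neural retina. Its log2 fold was 2.81 ± 0.74 (adjusted p = 0.00320), and without frame 2, where the myelin pool was smallest, it was 2.30 (adjusted p = 0.0934). The mean Aqp4 level in the myelin region was 528 CPM with frame 2 and 162 CPM without it.

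Glul was at 1511, 1293 and 1400 CPM in the myelin region from 56 UMIs, with a log2 fold of 0.56 ± 0.28 (adjusted p = 0.124). That fold passed the test at 0.94 with RLE size factors (adjusted p = 0.00661) and at 0.86 without frame 2 (adjusted p = 0.0351). Car2, which oligodendrocytes are also known to make, was at 504, 506 and 156 CPM in the myelin region from 14 UMIs, with a log2 fold of 1.23 ± 0.56 (adjusted p = 0.0943). Without frame 4 its log2 fold was 1.85 (adjusted p = 0.0396), and without frame 3 it was -0.04 (adjusted p = 0.981). Clu was at 11083, 6860 and 4303 CPM there, with a log2 fold of 0.09 ± 0.23 (adjusted p = 0.794). Slc1a2 had 2 UMIs in the myelin region, both in frame 2, and was not called (log2 fold -1.18, adjusted p = 0.386).

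The myelin region also carried astrocyte transcripts. Of 4 tested astrocyte genes 3 rose: Gfap, the intermediate filament of astrocytes, by 5.16 ± 0.26 (adjusted p = 9.66e-33), S100b by 4.79 ± 0.53 (adjusted p = 1.40e-09), and Gja1, connexin 43, by 3.79 ± 0.42 (adjusted p = 5.67e-08). The summed list was at 6739 to 13552 CPM in the myelin region, against 279 to 847 CPM over the regions of the neural retina, while Pax2, Aldh1l1, Fgfr3, Gjb6 and Cldn10 had 0 UMIs in the myelin region. Of 7 tested water and potassium genes 2 rose, among them Fxyd1 by 3.18 ± 0.46 (adjusted p = 4.27e-08), and 1 fell, Dmd, with 0 UMIs in the myelin region. The bicarbonate transporter Slc4a4 rose by 4.44 ± 0.93 (adjusted p = 0.000154) and Bsg, basigin, the partner of lactate transporters, fell by 2.08 on the log2 scale (adjusted p = 1.16e-10), the 2 calls among 5. Got1, an aspartate aminotransferase, fell by 3.47 on the log2 scale (adjusted p = 0.00644) as the 1 call among 9 glutamate genes. The lipid carrier Apod rose by 4.87 ± 0.64 (adjusted p = 1.54e-09), the 1 call among 6. Of 8 tested gliosis genes 4 rose and none fell, led by Gfap, Vim and C4b. Of 4 tested microglia genes 1 rose (Tyrobp), and of 2 vascular genes 1 rose (Vwf). The part of astrocytes in the Slc1a3 and Aqp4 folds was not tested.

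Clu stood out in the pigmented region. The comparison of that region with the neural retina called 24.6% of all genes, 12.7% higher and 11.9% lower, and of the 6 tested genes Clu and Glul rose and Car2 fell. Clu was at 25847, 23697, 19754 and 6968 CPM in the pigmented region, against 1335 to 4980 CPM in the photoreceptor region, 2359 to 4280 CPM in the ganglion region and 8082 to 9664 CPM in the inner nuclear region. The log2 fold was 1.98 ± 0.17 (adjusted p = 3.02e-16), higher in 4 of 4 frames. In frame 4 the pigmented value lay below the inner nuclear value of the same frame, 8082 CPM, and in the other frames well above it. Clu in frame 4 was the lowest of the frames in each of the 6 regions. The pigmented region held 28.2% of all Clu UMIs and 9.21% of all UMIs.

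Glul was at 1501, 1008, 1176 and 1450 CPM in the pigmented region, above every value of the photoreceptor and ganglion regions and overlapping the inner nuclear values, and rose by 0.80 ± 0.19 (adjusted p = 0.000431). That call was lost with regions by marker sums (log2 fold 0.65, adjusted p = 0.0663). The region joined 2 clusters of spots. The cluster of 337 spots led by the visual cycle genes Rpe65, Lrat and Rgr held Glul at 920, 825, 686 and 1224 CPM. In the cluster of 66 spots led by Trpm1, Mlana, Dct and Pmel, genes of pigment-making cells (Trpm1 is also a bipolar cell channel), Glul was at 2210, 1612 and 2731 CPM in frames 1 to 3, and frame 4 held only 2 such spots. With the pigmented region kept to the first of these and the ganglion region to its Pou4f1 and Pou4f2 cluster, a choice made after seeing the clusters, the Glul log2 fold was 0.33 (adjusted p = 0.251). Clu was at 21590 CPM pooled over frames in the Rpe65 cluster and 21060 CPM in the Mlana cluster. By frame it was at 26613.5, 24054, 20766 and 5323 CPM in the Rpe65 cluster, where frame 4 lay below its inner nuclear value of 8082 CPM. In the Mlana cluster it was at 24910, 22525 and 16549 CPM in frames 1 to 3.

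Car2 was at 50.6, 76.9, 39.5 and 0 CPM in the pigmented region from 17 UMIs and fell by 1.17 on the log2 scale (SE 0.45, adjusted p = 0.0490), lower in 4 of 4 frames. That call was lost on leaving out any 1 frame, with log2 folds of -1.31 to -0.81 and adjusted p-values of 0.0683 to 0.202, and under 7 other settings, so 11 of 16 alternatives lost it. Slc1a3 was at 33.7, 42.7, 39.5 and 46.8 CPM in the pigmented region from 2, 5, 5 and 1 UMIs (log2 fold -0.96 ± 0.49, adjusted p = 0.152), and Slc1a2 was at 16.9, 42.7, 71.1 and 46.8 CPM (log2 fold -0.60 ± 0.48, adjusted p = 0.395). Aqp4 was at 152, 17.1, 31.6 and 0 CPM (log2 fold 0.48 ± 0.59, adjusted p = 0.610), and without frame 1 its log2 fold was -0.71. Pooled over frames, Aqp4 was at 103 CPM in the Mlana cluster (9 UMIs) and 25.3 CPM in the Rpe65 cluster (6 UMIs). Its pooled inner nuclear level was 97.4 CPM.

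Lists of related genes differed in the pigmented region. All 5 tested carbonic, bicarbonate and lactate genes rose, among them Car12 by 4.18 ± 0.62 (adjusted p = 3.35e-08), Car14 by 2.95 ± 0.38 (adjusted p = 6.07e-10) and Bsg by 1.04 ± 0.16 (adjusted p = 1.74e-07), while the cytosolic Car2 was lower. Of 7 water and potassium genes 3 rose, among them Sntb1 by 2.96 ± 0.45 (adjusted p = 7.93e-08) and the ion cotransporter Slc12a2 by 1.82 ± 0.56 (adjusted p = 0.00964). Of 9 glutamate genes none rose and 3 fell (Got1, Slc38a1 and Slc1a4), and of 6 lipid and thyroid genes 2 rose (Lrp1 and Apod). The non-member Müller list summed to 6033 to 10503 CPM in the pigmented region, against 1218 to 3954 CPM over the regions of the neural retina, with Rdh10, a retinol dehydrogenase, up by 3.22 ± 0.21 (adjusted p = 3.36e-24) and Rlbp1 by 2.55 ± 0.27 (adjusted p = 5.48e-13). Of 4 tested astrocyte genes Gja1 and S100b rose and Gfap fell, and Pax2 and Aldh1l1 had 0 UMIs there. The summed astrocyte list was at 795 to 3928 CPM in the pigmented region, and 279 to 847 CPM over the regions of the neural retina. Of 8 tested gliosis genes 4 rose and 1 fell, and of 4 tested microglia genes 3 rose, with the summed microglia list at 327 to 742 CPM, against 54.8 to 365 CPM over the regions of the neural retina. Of 2 vascular genes 1 rose. The part of these other cells in the Clu, Glul and Car2 folds was not tested.

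**Figure D3:**
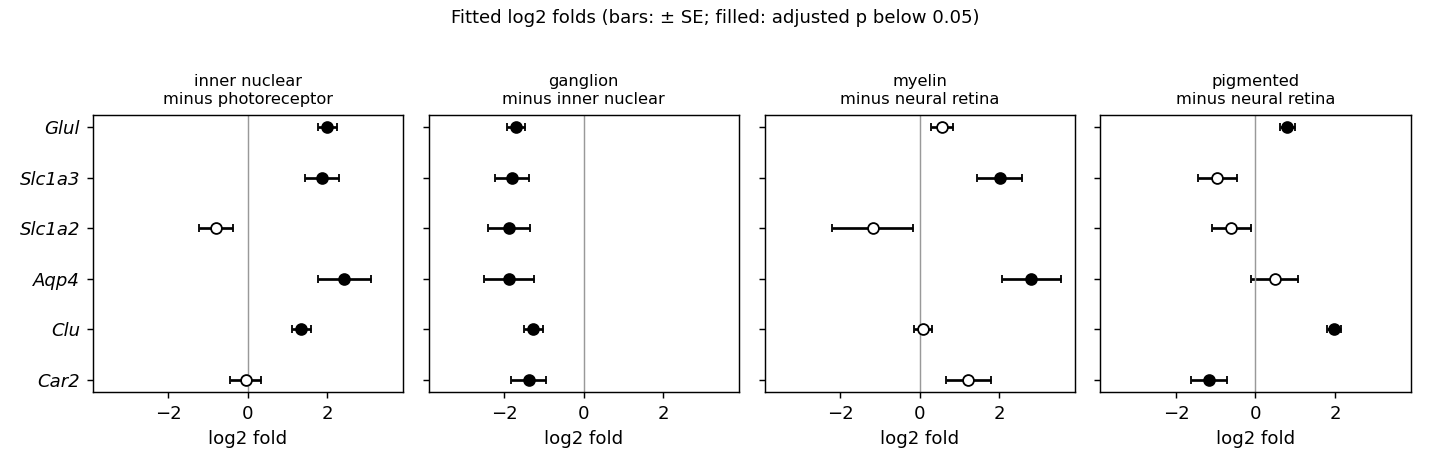
Fitted log2 folds of the 6 tested genes in the 4 comparisons, with ± SE bars and filled points where the adjusted p was below 0.05. All 6 points of the ganglion comparison are filled and lie below 0, from -1.88 for Slc1a2 to -1.27 for Clu, while in the myelin comparison only Slc1a3 at 2.01 and Aqp4 at 2.81 are filled.

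Kcnj10, Abca8a and Crym did not reach the count needed for the test, so their UMIs were pooled over frames and compared as ratios of CPM with 95% counting intervals, which leave out the spread between frames. Kcnj10 had 10 UMIs in the inner nuclear region (3, 5, 2 and 0 in frames 1 to 4) and 2 in the photoreceptor region, a ratio of 13.2 (2.81 to 124). It had 5 UMIs in the myelin region (2, 1 and 2 in frames 2 to 4), a ratio to the inner nuclear region of 4.13 (1.11 to 13.3). Kcnj10 thus had its highest pooled levels where Aqp4 and Slc1a3 had theirs, in the myelin and inner nuclear regions. With the low-count filter removed its log2 folds were 2.80 for the inner nuclear against the photoreceptor region (adjusted p = 0.106) and 2.62 for the myelin region against the neural retina (adjusted p = 0.105), and it passed the test in neither.

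Abca8a had 23 UMIs in the inner nuclear region (14, 7, 1 and 1 in frames 1 to 4), against 13 in the photoreceptor region, a ratio of 4.67 (2.27 to 10.0). In the ganglion region it had 7 UMIs, a ratio to the inner nuclear region of 0.147 (0.0533 to 0.354). Most of its inner nuclear UMIs thus came from frame 1. The myelin region held 0 of its UMIs, which allows up to 73.1 CPM (3 UMIs in place of 0), above its pooled inner nuclear level of 67.9 CPM, so a difference was not detectable at this depth. Crym had 19 UMIs in the inner nuclear region and 24 in the photoreceptor region, a ratio of 2.09 (1.08 to 3.98), and 14 in the ganglion region, a ratio to the inner nuclear region of 0.356 (0.165 to 0.750). Its fibrous level was 108, 35.1, 108 and 0 CPM in frames 1 to 4 from 23 UMIs, overlapping the inner nuclear values of 75.8, 52.5, 46.9 and 0 CPM. Neither gene passed the test in any of the 4 comparisons with the filter removed (adjusted p = 0.157 to 0.846).

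Ordered by mean level over frames, the 6 regions of the fit differed between genes. The muscle, epithelium and blood regions are left out of these orders, although the epithelium means of Car2, 206 ± 85.6 CPM on 12 UMIs, and of Slc1a2, 151 ± 129.5 CPM on 8 UMIs, lay above their inner nuclear means. Glul was at 1893 ± 516 CPM in the inner nuclear region, 1401 ± 109 CPM in the myelin region (n = 3), 1284 ± 232 CPM in the pigmented region, 678 ± 90.5 CPM in the fibrous region, 545 ± 151 CPM in the ganglion region and 388 ± 64.5 CPM in the photoreceptor region (SD, n = 4). Each pair of neighbours in this order overlapped over frames except pigmented and fibrous. Slc1a3 was at 399.9 ± 112 CPM in the myelin region (n = 3), 222 ± 86.7 CPM in the inner nuclear region and 36.7 to 53.4 CPM on average in the other regions of the fit, and the first of these overlapped the next. Slc1a2 was at 160 ± 38.9 CPM in the photoreceptor region, 134 ± 102 CPM in the inner nuclear region and between 105 and 151 CPM in the fibrous region, which overlapped, and at 44.4 ± 22.2 CPM in the pigmented and 28.0 ± 11.5 CPM in the ganglion region, while 2 UMIs set its myelin level. Aqp4 was at 528 ± 634 CPM in the myelin region (n = 3), 105 ± 37.8 CPM in the inner nuclear region and 14.7 to 50.1 CPM on average in the others of the fit. Clu was at 19067 ± 8451 CPM in the pigmented region, 8786 ± 654 CPM in the inner nuclear region, 7415 ± 3424 CPM in the myelin region (n = 3), 5528 ± 2610 CPM in the fibrous region, 3597 ± 873 CPM in the ganglion region and 3198 ± 1501 CPM in the photoreceptor region, and each pair of neighbours overlapped. Car2 was at 388 ± 202 CPM in the myelin region (n = 3), 182 ± 85.6 CPM in the inner nuclear region, 160 ± 60.3 CPM in the photoreceptor region, 121 ± 30.1 CPM in the fibrous region, 61.9 ± 44.5 CPM in the ganglion region and 41.7 ± 31.95 CPM in the pigmented region, and these neighbours overlapped as well.

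**Figure D4:**
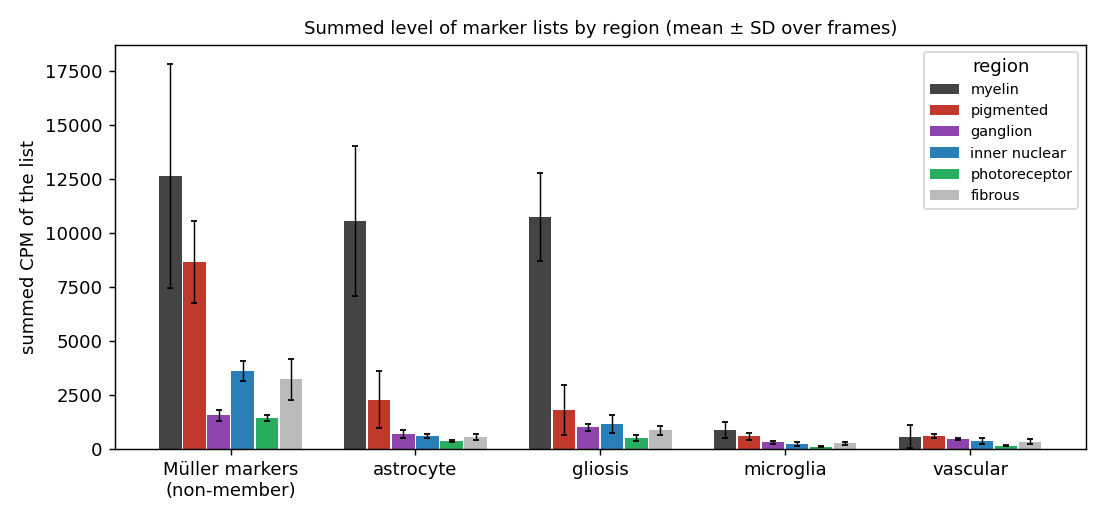
Summed level of the marker lists by region, as mean ± SD over frames in CPM. The astrocyte list was at 6739 to 13552 CPM in the myelin region and at 279 to 847 CPM over the regions of the neural retina, and the non-member Müller list was highest in the myelin and pigmented regions.

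Over the 23 pools of a frame and a region, levels (log2 CPM with a prior count of 2) of some of these genes went together. Pools share library and depth, so the Pearson correlations are descriptions. Slc1a3 correlated with Aqp4 at 0.77 and with Kcnj10 at 0.71, Aqp4 with Kcnj10 at 0.76, Glul with Slc1a3 at 0.67 and Glul with Clu at 0.64. Slc1a2 correlated with Glul at -0.14 and with Slc1a3 at -0.09. Abca8a and Crym correlated at 0.74, with 88 and 112 UMIs over all spots and fewer in the pools. Among 806 or 807 non-marker genes with at least 500 UMIs, the closest to Glul were Apoe (0.76), Greb1 (0.75) and Sparc (0.71), and Greb1 was also the closest to Slc1a3 (0.87) and Aqp4 (0.85). Closest to Slc1a2 were Macf1 (0.85), Hsp90aa1 (0.83) and Msi2 (0.81), to Clu Pdpn (0.87), Apoe (0.74) and Gja1 (0.72), and to Car2 Kif1b (0.77), Ptges3 (0.68) and Kif13a (0.66). For Kcnj10 the closest were the mitochondrial genes mt-Co1 (0.87), mt-Nd2 (0.84) and mt-Atp6 (0.83). Kcnj10 had 34 UMIs over all spots and fewer in the pools.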

How the data were processed

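The authors' deposited matrices hold counts of UMIs per gene and spot, for which the file headers name Space Ranger 2.0.0, and the submitters' processing notes name mm10. How reads were aligned and which annotation was used is not given in the sources used here. Only spots over tissue were used, 674029 to 1066633 UMIs per frame. Images and spot positions were not used here.

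Spots with at least 20 UMIs over 149 marker genes were scaled to 10000, log-transformed, standardised with values limited to 10, reduced to 10 principal components and clustered (scanpy 1.11.5, 15 neighbours, Leiden 0.10.2 at resolution 0.6). A cluster took the class holding most of its 10 leading markers, at least 3. Regions are mixtures, with no doublet call.

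UMIs were summed per frame and region. edgeR 4.0.16 (filterByExpr with a minimum count of 10, TMM, robust quasi-likelihood) was fitted to 23 pools of 6 regions with frame as a block, because regions share sections. After region means were removed, the residuals of a frame's 2 sides correlated at 0.04 to 0.17, so pairing was weak. Marker genes entered neither library sizes nor tests. The threshold was an adjusted p of 0.05 (Benjamini-Hochberg). Because the frames are not known to be separate animals, p-values measure only the spread between these samples, which may be technical. Regions and tests rest on the same spots. Region CPM use all UMIs. Promoter windows of chromosome 18 were not used here. The fit was tested on simulated data for the inner nuclear comparison only, with no frame effects and the same spread for all genes.

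The genes and lists were chosen with earlier results of these data known. Named genes are the 9 members, the 3 genes most like each by Pearson correlation over the pools, up to 3 genes per list and comparison with the lowest p-value, and marker genes that stand beside a result. Results for 2 genes named by this rule are not reported here. Alternatives were RLE size factors, DESeq2 1.42.0, other filters, regions, samples and blocks, and each frame left out.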

Additional observations from a re-analysis of the deposited data

Results flagged for a closer look

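In 54 groups of 4 frames (each of the 9 genes over all spots and in the regions with 4 frames), a gap test for single values far from the rest (Dixon's) picked out 4, where chance alone picks out about 1 in 20 groups. Clu over all spots was at 2748 CPM in frame 4, against 7808 to 8382 CPM in the other frames, on 1852 UMIs. Glul in the inner nuclear region was at 1126 CPM in frame 3 (72 UMIs), against 2054 to 2220 CPM in the other frames. Glul in the ganglion region was at 319 CPM in frame 3 as well (50 UMIs), against 613 to 632 CPM in the other frames. Kcnj10 in the fibrous region was at 12 CPM in frame 3 from 1 UMI, with 0 in the other frames.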

How the results depend on the processing

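Of 364 fits of a gene's log2 fold under an alternative, 303 kept direction and side of the threshold, 36 lost the call, 9 gained one and 16 turned sign; the cause was not tested. Every sign change was in a fold that had not passed the test. For Car2, inner nuclear minus photoreceptor, the log2 fold of -0.05 turned to 0.052 with RLE size factors, 0.041 in DESeq2, 0.028 without frame 3 (single frames left out gave -0.12 to 0.028), 0.21 with k-means regions, 0.21 at Leiden resolution 1 and 0.36 with at least 10 marker UMIs per spot. In the myelin comparison Glul turned to -0.013 without the filter, Slc1a2 to 0.25 with regions by marker sums, Car2 to -0.037 without frame 3 (single frames left out gave -0.037 to 1.85), and Clu to -0.47 without the filter, -0.065 without frame 4 (-0.065 to 0.22 over single frames left out), -0.10 with only the compared regions fitted and -0.016 without the frame block. In the pigmented comparison Slc1a2 turned to 0.053 with marker sums, and Aqp4 to -0.71 without frame 1 (-0.71 to 1.10 over single frames left out) and -0.13 with at least 40 marker UMIs. The 36 lost calls were 11 for Car2 in the pigmented comparison, 6 each for Aqp4 and Slc1a2, 4 for Car2 and 2 for Clu in the ganglion comparison, 2 for Aqp4 in the inner nuclear comparison, 2 for Slc1a3 and 1 for Aqp4 in the myelin comparison and 2 for Glul in the pigmented comparison.

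Without the replicate block of frames 843, 436, 785 and 821 genes were called in the inner nuclear, ganglion, myelin and pigmented comparisons, beside 908, 461, 812 and 870 with it, and the Clu call in the ganglion comparison was the one named earlier as lost. With single frames left out the counts ran from 470 to 837, 267 to 389, 443 to 706 and 509 to 878 in the same order. With at least 40 marker UMIs the counts were 463, 773 and 566 for the inner nuclear, ganglion and pigmented comparisons. Marker sums gave 196, 78 and 294 for the ganglion, myelin and pigmented comparisons. DESeq2 gave 476 and Leiden resolution 1 gave 533 for the myelin comparison. Of the called genes 74.3% were higher in the inner nuclear comparison with at least 40 marker UMIs, beside 54.3%. Mean CPM over frames moved by less than the spread between frames in all 54 alternatives, and CPM by region did so in 428 of 468. Marker sums placed the mean myelin level of Slc1a3 at 39.7 CPM and could not test Slc1a3 or Aqp4, which fell below the filter there. K-means regions and at least 40 marker UMIs gave no myelin comparison.

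Depth limits the myelin region most, with 41043 UMIs, and Kcnj10, with 34 UMIs in all. Region shares of Kcnj10, Abca8a and Crym rest on counting error, since few UMIs fell in each frame.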
